A study of Arabidopsis thaliana with 12 samples.

Results

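The genes described here are 93 of the 32833 Arabidopsis locus codes in the tables whose transcripts were at least 4-fold less abundant in a distant leaf 1 h after wounding, in the wild type and in the mutant isi1-2. They were chosen from CPM values, the usual depth-scaled unit in which the count of a gene is divided by the total over all genes of its library and scaled to a fixed library size. A member had 4 CPM or more in all 6 unwounded libraries and, in each genotype, a mean CPM in wounded plants of at most 1/4 of the mean in unwounded plants. The expansin gene EXPA8 and the clock gene PRR9 also met these terms and were left out by the rule, which took 95 genes to 93. Because the wounding contrasts of both genotypes chose the members, the size of the difference between wounded and unwounded plants is given below as a description with no test. The rule did not compare the genotypes with each other, but it leaves out genes that fell 4-fold in only 1 genotype. It sets no limit on a larger fall in either genotype. It did not use the other genes of the same families or the structure of the genes.

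Leaf 13 of 5-week-old plants gave the RNA, from the Col-0 accession (WT) and of isi1-2, the T-DNA line SALK_014032 in the Col-0 background, which is mutated in ISI1 (AT4G27750), a gene named for impaired sucrose induction. Wounded plants of both genotypes had the outer part of leaf 8 crushed with forceps 1 h before harvest, and leaf 13 itself was not damaged. The 4 groups of genotype and treatment have 3 replicates each, called biological replicates in the labels, and each replicate pooled 2 plants, so p-values measure the spread between such pools. Plants grew in days of 10 h light, and no time of day is given for the harvests, so that a difference in time of day between wounded and unwounded plants cannot be told apart from wounding.

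A crushed leaf of a rosette sends electrical and chemical signals through the vasculature, and distant leaves joined to it start to make jasmonate within minutes. Jasmonate releases MYC transcription factors from their JAZ repressors, induces defence genes and slows growth. Leaf growth itself is driven by auxin, gibberellin and brassinosteroid, which act on cell wall enzymes, and by the circadian clock and light signalling, which time expression over the day.

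Library totals were 23307790 to 30747778 counts. ISI1 stood at 9.34 to 11.6 CPM in the 6 WT libraries and at 0.0346 to 0.157 CPM in the 6 isi1-2 libraries. Markers of leaf mesophyll summed to 43188 to 47071 CPM in unwounded WT and 32838 to 35106 CPM in wounded WT, with 44637 to 46095 and 31059 to 35358 CPM in isi1-2. Both meristem markers, STM and WUS, had 0 counts in all 12 libraries, and all 3 root hair markers were at or under 3 counts in each library. The epidermis and trichome list (ATML1, GL2, GL1) summed to 107 to 113 CPM in unwounded and 50.3 to 54.5 CPM in wounded WT, and to 104 to 114 and 44.7 to 51.5 CPM in isi1-2, nearly all of it from ATML1, with GL1 at or under 3 counts. The lists for guard cells, phloem and xylem moved less, for example 64.5 to 73.0 against 54.9 to 60.2 CPM for guard cells in WT. In a whole leaf, fewer cells of a type and less RNA per cell cannot be told apart, and the part of the epidermal and mesophyll markers in the results below was not tested.

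Before wounding the 93 genes together held 2473 to 2586 CPM in the 3 WT libraries and 2297 to 2347 CPM in the 3 isi1-2 libraries. After wounding they held 563, 361 and 408 CPM in WT replicates 1, 2 and 3, and 375, 313 and 324 CPM in those of isi1-2. The median member kept 19.3% of its unwounded mean in WT (range 7.31% to 24.9%) and 15.1% in isi1-2 (range 3.25% to 23.9%). The median of the 13535 genes that had at least 4 CPM in the unwounded libraries was 94.6% in WT and 93.3% in isi1-2, and members make up 0.687% of those genes. In every member all 6 wounded libraries lay below all 6 unwounded libraries, a pattern found in 28.4% of the 13535 genes. The rule used this contrast, and nothing is read from the separation. The lowest count of a member in any wounded library was 6, above the floor of 3 counts taken as detected.

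Replicate 1 of wounded WT stood apart from its group. Its median member was at 24.1% of the unwounded mean, compared with 14.2% and 16.6% in replicates 2 and 3 and with 13.4% to 16.9% in the wounded isi1-2 libraries. It was the highest of the 3 wounded WT libraries in 75 of the 93 members. In this library 54 members were at or under 25% of the WT unwounded mean, against 92 and 90 in the other WT replicates. Without it the WT median was 16%, and the medians of the function groups then ran from 10.1% to 18.6%. The WT share of 7 members moved by over 1.5 times when the pool was left out. It went from 18.0% to 8.76% for SAUR16, from 19.8% to 11.2% for SAUR21, from 18.6% to 7.27% for CBF3 and from 8.51% to 5.34% for APD7. It went from 15.8% to 9.61% for GDU4, from 20.5% to 13.1% for CLE16 and from 14.2% to 8.55% for AT5G05840, an uncharacterised gene. The WT shares below use all 3 pools unless stated.

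**Figure D1:**
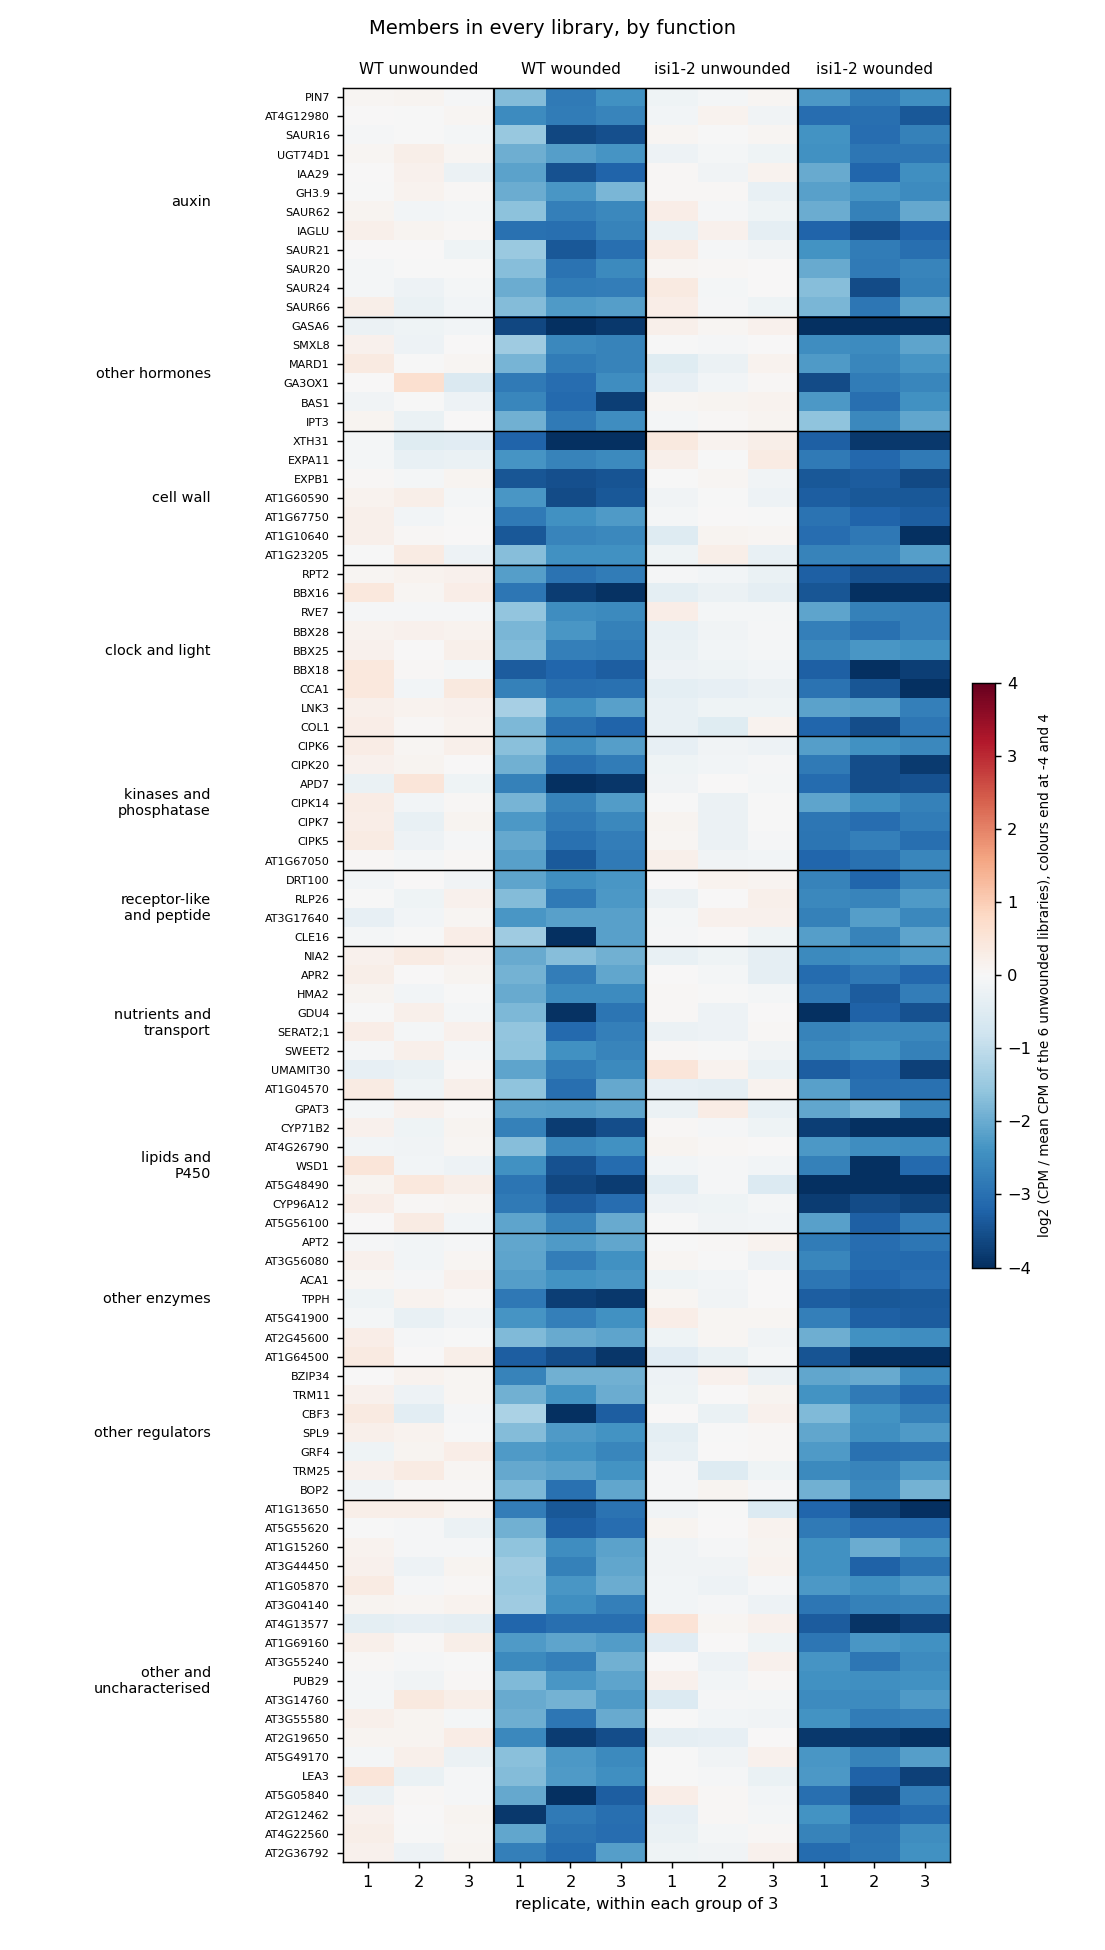
Rows are the 93 members grouped by function and columns are the 12 libraries. Colour gives the log2 of a library's CPM over the mean CPM of the 6 unwounded libraries, and the colour scale ends at -4 and 4. All wounded libraries are blue in every row, and replicate 1 of wounded WT is the palest of them in most rows.

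Auxin genes were the largest named group, with 12 members at a median of 20.0% of the unwounded level in WT (range 12.5% to 24.8%) and 17.4% in isi1-2 (range 11.1% to 21.1%). Auxin is exported from cells by PIN carriers, switches genes on by removal of Aux/IAA repressors and is inactivated by conjugation to amino acids or glucose, and members lie at each of these steps. PIN7 (AT1G23080), an auxin efflux carrier, had 156, 161 and 145 CPM in unwounded WT and 44.7, 20.7 and 27.9 in wounded WT, and 133, 141 and 155 in unwounded and 30.1, 21.3 and 27.1 in wounded isi1-2. The 6 wounded libraries lay at 20.7 to 44.7 CPM, with replicate 1 of WT highest, far below the lowest unwounded library. IAA29 (AT4G32280), an Aux/IAA repressor, was at 19.6, 21.7 and 16.6 CPM without wounding and 4.43, 1.72 and 2.10 after it in WT, against 19.9, 17.6 and 21.3 and 4.83, 2.16 and 3.56 in isi1-2.

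The 6 SAUR members encode small proteins of a large auxin-induced family. SAUR16 (AT4G38860) had 43.3, 44.5 and 42.7 CPM in unwounded WT and 15.9, 3.64 and 3.99 in wounded WT, and 48.0, 45.0 and 47.8 in unwounded and 8.67, 5.52 and 6.89 in wounded isi1-2. Replicate 1 of wounded WT was far above its 2 fellow replicates and above all wounded isi1-2 libraries. SAUR20, SAUR21 and SAUR24 come from the SAUR19 subfamily, whose proteins promote cell expansion by inhibiting D-clade PP2C phosphatases. SAUR20 (AT5G18020) had 8.08, 8.32 and 8.32 CPM without wounding and 2.62, 1.11 and 1.45 after it in WT, against 8.98, 8.71 and 8.52 and 2.12, 1.2 and 1.37 in isi1-2. Of its unwounded level SAUR21 kept 19.8% in WT and 14.9% in isi1-2, and SAUR24 kept 19.8% in WT and 16.8% in isi1-2. SAUR62 kept 21.9% in WT and 21.1% in isi1-2, and SAUR66 kept 24.8% in WT and 21.0% in isi1-2. In all 6 SAUR members the wounded levels of the 2 genotypes overlapped.

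Auxin-inactivating enzymes were among the members. IAGLU (AT4G15550), which joins glucose to indole-3-acetic acid, had 12.2, 11.3 and 10.9 CPM in unwounded WT and 1.33, 1.30 and 1.67 in wounded WT, and 8.67, 11.9 and 8.23 in unwounded and 1.14, 0.926 and 1.13 in wounded isi1-2. The wounded isi1-2 libraries all lay below the wounded WT libraries, by a small margin. UGT74D1 (AT2G31750), another glucosyltransferase acting on auxins, averaged 24.1 CPM without wounding and kept 20.4% in WT and 17.0% in isi1-2. GH3.9 (AT2G47750), of the family that conjugates auxin to amino acids, averaged 17.4 CPM and kept 23.4% in WT and 20.5% in isi1-2. The twelfth member, AT4G12980, is annotated as an auxin-responsive family protein and had 68.1, 68.0 and 71.5 CPM without wounding and 11.8, 9.85 and 10.9 after it in WT, against 63.0, 75.9 and 62.0 and 8.16, 8.34 and 6.50 in isi1-2.

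Other hormone pathways gave 6 members, at a median of 15.5% of the unwounded level in WT (range 7.59% to 23.0%) and 17.8% in isi1-2 (range 4.02% to 23.9%). GASA6 (AT1G74670), a small cysteine-rich protein of the gibberellin-regulated GASA family, had 74.1, 76.6 and 81.0 CPM in unwounded WT and 6.90, 4.62 and 6.05 in wounded WT, and 101, 92.6 and 97.4 in unwounded and 4.95, 2.16 and 4.58 in wounded isi1-2. Its mean over genotypes was 18.1-fold lower after wounding, the second largest difference of the 93, and at 95.7 CPM per kilobase of transcript it was the most abundant member per length in unwounded leaves. GA3OX1 (AT1G15550), the enzyme that makes bioactive gibberellin, had 8.12, 12.7 and 5.45 CPM without wounding and 1.14, 0.976 and 1.45 after it in WT, against 6.37, 7.44 and 8.27 and 0.667, 1.16 and 1.33 in isi1-2, and the 3 unwounded WT libraries spread widely. BAS1 (AT2G26710), a cytochrome P450 that inactivates brassinosteroids, kept 12.7% in WT and 15.9% in isi1-2. IPT3 (AT3G63110), an isopentenyltransferase of cytokinin synthesis, kept 19.9% in WT and 23.9% in isi1-2, and SMXL8 (AT2G40130), a repressor in strigolactone signalling, kept 23.0% in WT and 19.7% in isi1-2. MARD1 (AT3G63210), named for abscisic-acid-regulated dormancy, kept 17.3% in WT and 21.3% in isi1-2.

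Cell wall genes numbered 7 and kept a median of 13.3% of the unwounded level in WT (range 8.62% to 21.8%) and 11.1% in isi1-2 (range 6.75% to 18.4%). XTH31 (AT3G44990), of the family that cuts and rejoins xyloglucan, had 63.6, 47.6 and 49.1 CPM in unwounded WT and 7.2, 2.44 and 4.17 in wounded WT, and 87.5, 73.9 and 77.8 in unwounded and 6.99, 4.55 and 4.62 in wounded isi1-2. Its unwounded isi1-2 libraries all lay above its unwounded WT libraries, while the wounded libraries of the genotypes overlapped. EXPA11 (AT1G20190), an alpha-expansin that loosens walls, had 46, 39.5 and 40.5 CPM without wounding and 9.53, 7.61 and 8.44 after it in WT, against 56.6, 48.5 and 61.9 and 6.91, 5.56 and 6.89 in isi1-2. It was above WT in each unwounded isi1-2 library and below WT in each wounded one. EXPB1 (AT2G20750), a beta-expansin, had 44.7, 41.3 and 47.0 CPM without wounding and 4.06, 3.81 and 3.95 after it in WT, against 42.8, 45.8 and 39.1 and 4.12, 4.32 and 3.52 in isi1-2, with overlapping genotypes in both treatments. The other 4 act on or resemble enzymes acting on pectin, the gel-forming wall polymer. AT1G60590, of the pectin lyase-like superfamily, kept 11.7% in WT and 10.6% in isi1-2, and the pectate lyase gene AT1G67750 kept 17.6% in WT and 11.5% in isi1-2. AT1G10640, also pectin lyase-like, kept 13.3% in WT and 11.1% in isi1-2, and AT1G23205, of a superfamily of invertase and pectin methylesterase inhibitors, kept 21.8% in WT and 18.4% in isi1-2.

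Clock and light genes numbered 9, at a median of 15.5% of the unwounded level in WT (range 7.47% to 23.7%) and 12.6% in isi1-2 (range 7.82% to 22.9%). CCA1 (AT2G46830), a MYB factor of the morning loop of the clock, had 12.7, 8.71 and 12.4 CPM in unwounded WT and 1.44, 1.17 and 1.2 in wounded WT, and 7.22, 7.44 and 8.06 in unwounded and 1.22, 0.888 and 0.509 in wounded isi1-2. RVE7 (AT1G18330), a related MYB factor, kept 23.6% in WT and 17.4% in isi1-2, and LNK3 (AT3G12320), of a family of coactivators of the clock, kept 23.7% in WT and 22.9% in isi1-2. Of the 100-base windows in the exons of RVE7, 47.1% also occur elsewhere in the genome, so reads from them may be missing from its count. BBX16 (AT1G73870), a B-box zinc finger protein, had 25.1, 19.8 and 22.7 CPM without wounding and 2.51, 1.33 and 1.2 after it in WT, against 14.1, 16 and 14.4 and 1.73, 0.926 and 0.822 in isi1-2. It was 13.1-fold lower after wounding, the same to 3 digits as XTH31, and BBX18 (AT2G21320) was 11.1-fold lower. Of the other B-box genes, BBX25 kept 17.9% in WT and 20.5% in isi1-2, BBX28 kept 19.1% in WT and 16.1% in isi1-2 and COL1 kept 15.5% in WT and 12.6% in isi1-2. RPT2 (AT2G30520), an NPH3-type protein needed for phototropism, was among the most abundant members, with 147, 154 and 157 CPM in unwounded WT and 30.5, 17.8 and 20.2 in wounded WT, and 134, 128 and 116 in unwounded and 14.4, 12.4 and 12.3 in wounded isi1-2. All its wounded isi1-2 libraries lay below all its wounded WT libraries.

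Kinases and a phosphatase made up 7 members, at a median of 16.6% of the unwounded level in WT (range 8.51% to 20.8%) and 13.7% in isi1-2 (range 10.2% to 22.1%). CIPK5, CIPK6, CIPK7, CIPK14 and CIPK20 are protein kinases that are switched on by calcineurin B-like (CBL) calcium sensors. CIPK6 (AT4G30960) had 144, 125 and 137 CPM in unwounded WT and 37.4, 21.3 and 25.6 in wounded WT, and 94.8, 107 and 102 in unwounded and 25.6, 21.9 and 19.7 in wounded isi1-2, and each unwounded isi1-2 library lay below each unwounded WT library. CIPK20 (AT5G45820) had 89.3, 84.1 and 79.0 CPM without wounding and 20.9, 9.85 and 11.2 after it in WT, against 70.1, 72.5 and 76.4 and 11, 6.75 and 5.48 in isi1-2. CIPK14 kept 20.1% in WT and 20.2% in isi1-2, CIPK7 kept 16.6% in WT and 13.7% in isi1-2 and CIPK5 kept 16.5% in WT and 14.0% in isi1-2. All 5 genes have a single exon. APD7 (AT5G02760), a D-clade PP2C phosphatase of the class that SAUR proteins inhibit, had 27.4, 45.8 and 29.1 CPM without wounding and 5.06, 1.43 and 2.21 after it in WT, against 29.9, 33.1 and 31.3 and 3.89, 2.82 and 2.94 in isi1-2. AT1G67050, annotated as a membrane-associated kinase regulator, kept 15.3% in WT and 13.4% in isi1-2. The receptor-like and peptide group held DRT100 (AT3G12610), a leucine-rich repeat protein with 50.7, 55.8 and 49.7 CPM without wounding and 12.8, 10.0 and 11 after it in WT, against 55.7, 60.3 and 59.2 and 8.64, 6.10 and 8.77 in isi1-2. It also held RLP26 at 21.3% in WT and 17.9% in isi1-2, the leucine-rich repeat gene AT3G17640 at 23.0% in WT and 16.8% in isi1-2 and the signal peptide gene CLE16 at 20.5% in WT and 21.3% in isi1-2.

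**Figure D2:**
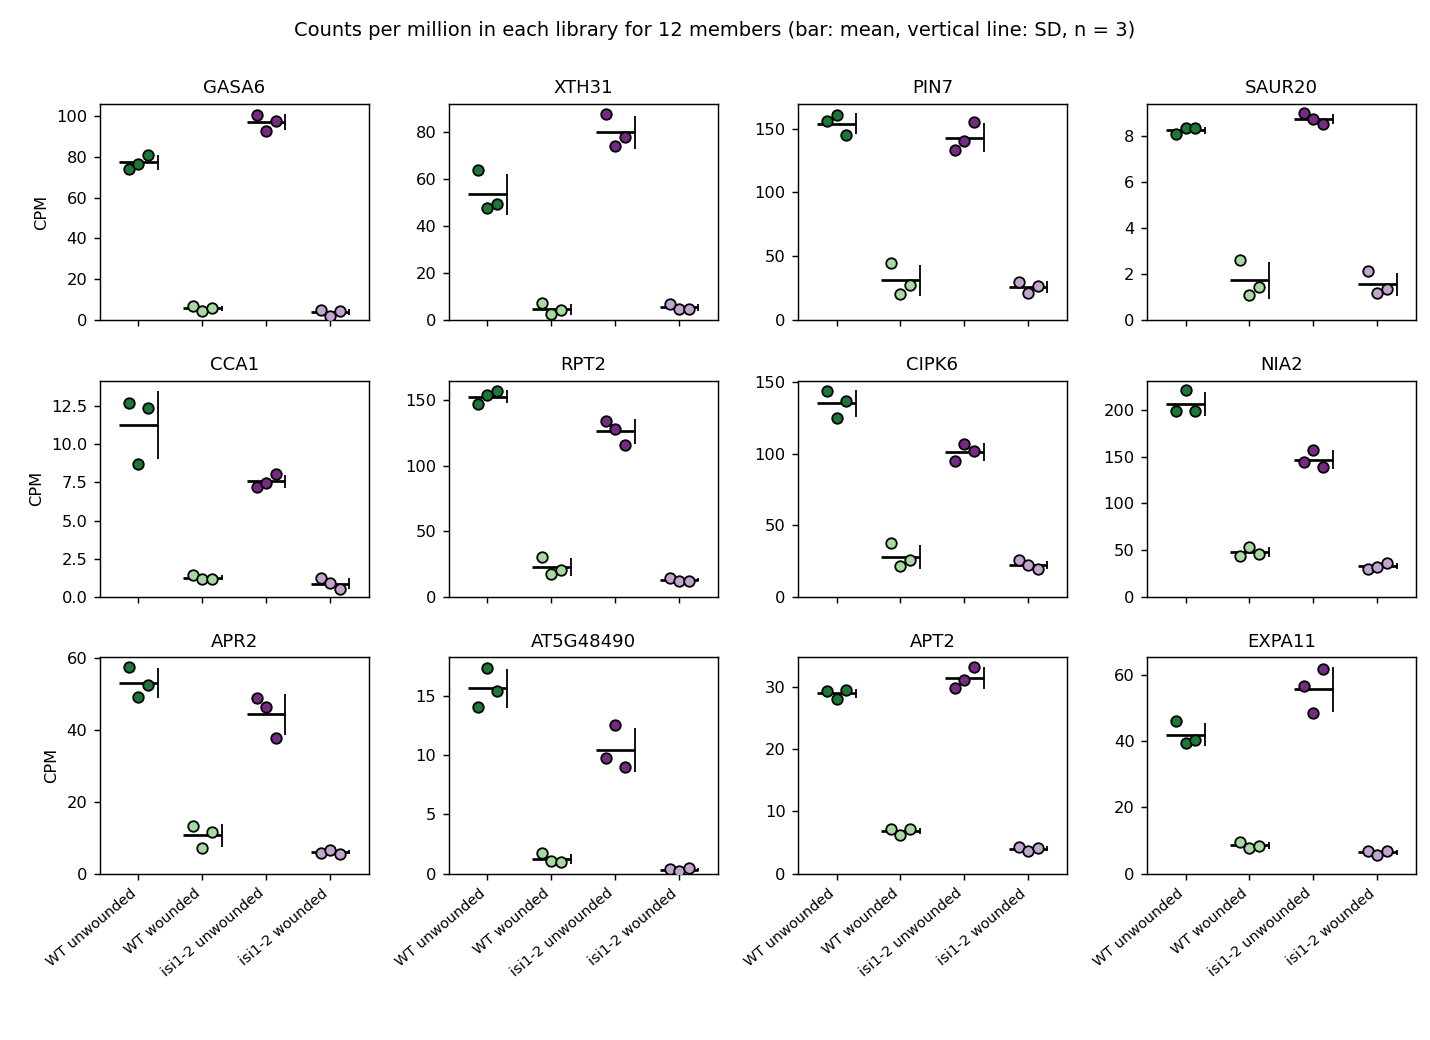
Each panel plots the CPM of a member in the 12 libraries from 0, with points for libraries, a bar for the group mean and a vertical line for the SD (n = 3). The wounded groups lie below the unwounded groups in each panel. Among wounded plants the genotypes are apart for NIA2, APR2, APT2, AT5G48490, RPT2 and EXPA11. They overlap for PIN7, SAUR20, XTH31, GASA6, CCA1 and CIPK6.

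Nutrient assimilation and transport gave 8 members, at a median of 20.3% of the unwounded level in WT (range 15.8% to 23.1%) and 15.5% in isi1-2 (range 8.81% to 22.5%). NIA2 (AT1G37130), a nitrate reductase and the most abundant member in CPM, had 199, 222 and 199 CPM in unwounded WT and 43.3, 53.8 and 46.3 in wounded WT, and 144, 158 and 139 in unwounded and 30.1, 32.1 and 36.8 in wounded isi1-2. The isi1-2 libraries lay below the WT libraries both without and after wounding. APR2 (AT1G62180), which reduces activated sulfate, had 57.5, 49.0 and 52.3 CPM without wounding and 13.1, 7.15 and 11.6 after it in WT, against 48.7, 46.3 and 37.8 and 5.73, 6.68 and 5.56 in isi1-2. SERAT2;1 (AT1G55920), a serine acetyltransferase that makes the direct precursor of cysteine, kept 18.3% in WT and 17.9% in isi1-2. The transporter HMA2 (AT4G30110), a metal pump that exports zinc, kept 19.7% in WT and 12.9% in isi1-2, and the sugar carrier SWEET2 (AT3G14770) kept 22% in WT and 17.7% in isi1-2. Amino acid transport was represented by GDU4 (AT2G24762), of the glutamine dumper family, with 15.8% in WT and 8.84% in isi1-2, and by UMAMIT30 (AT4G01450) with 20.5% in WT and 8.81% in isi1-2. The share left was lower in isi1-2 than in WT in all 8 members with all libraries, and in 5 of 8 without replicate 1 of wounded WT, when SERAT2;1, SWEET2 and AT1G04570, a transporter of the major facilitator superfamily, kept less in WT.

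Lipid genes and cytochromes P450 numbered 7, at a median of 12.3% of the unwounded level in WT (range 7.93% to 22.9%) and 11.2% in isi1-2 (range 3.25% to 23.4%). AT5G48490, annotated as a bifunctional inhibitor and lipid-transfer protein, had 14.1, 17.4 and 15.4 CPM in unwounded WT and 1.74, 1.04 and 0.942 in wounded WT, and 9.75, 12.5 and 8.98 in unwounded and 0.353, 0.232 and 0.430 in wounded isi1-2. At 19.7-fold it showed the largest difference of all members, and its wounded isi1-2 libraries all lay below its wounded WT libraries. CYP71B2 (AT1G13080), a cytochrome P450, had 31.4, 24.7 and 30.0 CPM without wounding and 4.28, 1.98 and 2.39 after it in WT, against 28.9, 26.6 and 24.8 and 2.04, 1.35 and 1.37 in isi1-2. GPAT3 (AT4G01950), of the glycerol-3-phosphate acyltransferases, kept 21.7% in WT and 23.4% in isi1-2, and WSD1 (AT5G37300), a wax ester synthase of the cuticle, kept 12.3% in WT and 11.2% in isi1-2. AT4G26790, a GDSL lipase, kept 22.9% in WT and 17.8% in isi1-2. Waxes are made by the epidermis, and the epidermal marker ATML1 was also lower after wounding (values above), the part of which was not tested.

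Other enzymes gave 7 members. APT2 (AT1G80050), an adenine phosphoribosyltransferase of purine salvage, had 29.3, 28.1 and 29.5 CPM in unwounded WT and 7.13, 6.24 and 7.14 in wounded WT, and 29.8, 31.1 and 33.3 in unwounded and 4.36, 3.63 and 4.07 in wounded isi1-2. Each unwounded isi1-2 library lay slightly above each unwounded WT library, and each wounded isi1-2 library lay below each wounded WT library. ACA1 (AT3G52720), an alpha carbonic anhydrase, had 23.3, 21.5 and 24.9 CPM without wounding and 4.80, 4.16 and 4.38 after it in WT, against 19.5, 20.4 and 22.1 and 2.98, 2.43 and 2.66 in isi1-2, again with no overlap between the wounded genotypes. TPPH (AT4G39770), which removes phosphate from the sugar signal trehalose 6-phosphate, kept 9.35% in WT and 9.86% in isi1-2. The glutaredoxin family gene AT1G64500 was 13.1-fold lower and kept 7.31% in WT and 8.03% in isi1-2. AT3G56080, of a methyltransferase superfamily, kept 18.2% in WT and 13.7% in isi1-2, and the hydrolase gene AT5G41900 kept 19.8% in WT and 10.6% in isi1-2.

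Growth and transcription regulators not placed above gave 7 members, at a median of 21.6% of the unwounded level in WT (range 17.9% to 23.4%) and 21.4% in isi1-2 (range 15.1% to 23.3%). SPL9 (AT2G42200), a factor of the juvenile-to-adult transition, kept 21.7% in WT and 22.8% in isi1-2, and GRF4 (AT3G52910), a growth-regulating factor of leaf cell proliferation, kept 17.9% in WT and 16.2% in isi1-2. BZIP34 (AT2G42380) kept 21.6% in WT and 23.3% in isi1-2 and TRM11 (AT4G23020) kept 23.4% in WT and 15.1% in isi1-2. CBF3 (AT4G25480), a regulator of the cold response, had 19.8, 11.5 and 14.9 CPM without wounding and 6.35, 0.683 and 1.56 after it in WT, against 15.6, 12.8 and 17.4 and 4.51, 2.93 and 2.35 in isi1-2, with the 3 wounded WT libraries widely spread. The group also held TRM25 and BOP2, a BTB and ankyrin protein of leaf and organ boundaries.

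The remaining 19 members have no clear role or fit no group, and they kept a median of 19.5% of the unwounded level in WT (range 9.57% to 24.9%) and 16.1% in isi1-2 (range 6.49% to 21.6%). AT1G13650, annotated as uncharacterised, was the most abundant of them, with 124, 124 and 113 CPM without wounding and 15.5, 9.98 and 13.5 after it in WT, against 96.3, 103 and 71.5 and 11.7, 8.10 and 5.79 in isi1-2. AT5G55620, AT1G15260, AT3G44450 and AT1G05870 averaged 43.0, 37.2, 23.2 and 18.3 CPM without wounding. AT2G19650, a C1 domain protein, was 12.6-fold lower. AT2G36792 is a long noncoding RNA, the single member that is not protein-coding, and kept 15.9% in WT and 14.9% in isi1-2, and a gene on the opposite strand overlaps it.

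The 3 members nearest to the bound of 25% inside it were AT1G05870 at 24.9%, the U-box gene PUB29 at 24.8% and SAUR66 at 24.8%, all in WT. Just outside lay TCL2 (AT2G30424) at 25.03% and TINY2 (AT5G11590) at 25.1% in WT, and AT4G04630 at 25.1% in isi1-2. Over all genes that met the level of 4 CPM, 108 were at least 4-fold lower in WT and 159 in isi1-2, of which 13 and 64 were so in that genotype alone. These counts were not tested against each other and include EXPA8 and PRR9. Without replicate 1 of wounded WT, 122 genes met the rule in both genotypes, all 93 members among them. The number lower in isi1-2 alone thus rests in part on that library.

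**Figure D3:**
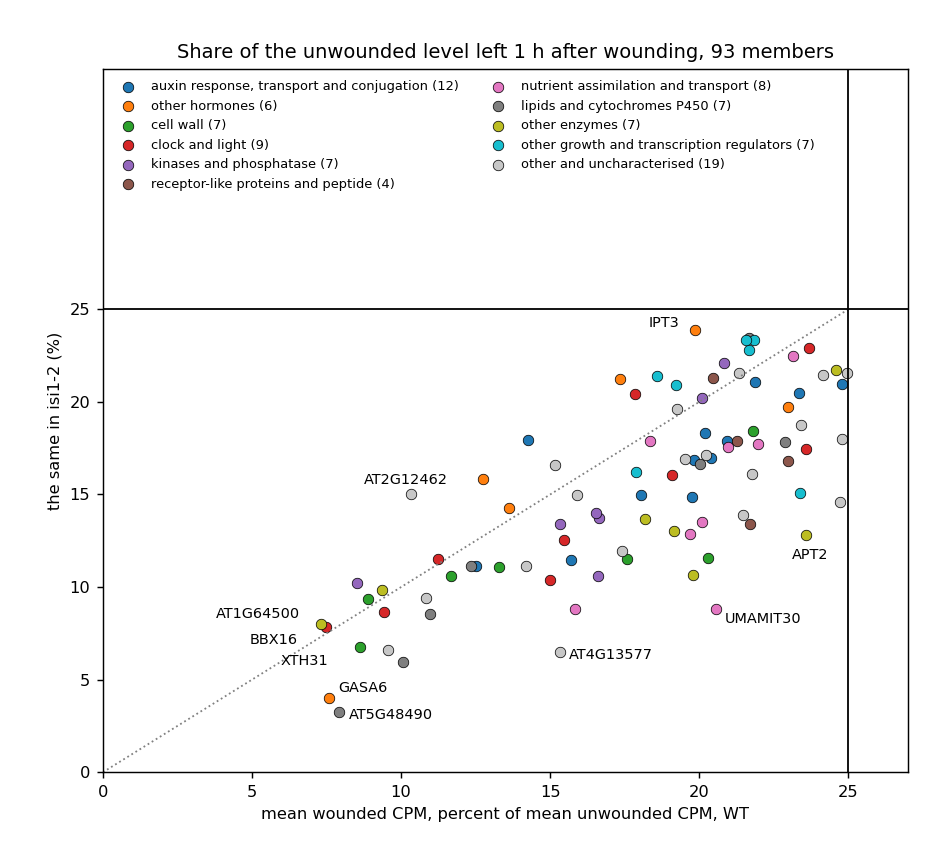
Each point is a member, with the mean wounded CPM as a percent of the mean unwounded CPM in WT on the x axis and in isi1-2 on the y axis. Solid lines mark the bound of 25% and the dotted line equal shares. AT5G48490 and GASA6 lie lowest, and 68 of 93 points are under the dotted line.

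The genotypes were then compared, first in unwounded plants, with edgeR's quasi-likelihood test over 18698 genes and Benjamini-Hochberg adjustment over all of them. Of the 93 members 2 (2.15%) were called at an adjusted p under 0.05, and 24 genes (0.128%) were called over the whole table, 0.0856% higher and 0.0428% lower in isi1-2. NIA2 was lower in isi1-2, on the log2 scale at -0.48 (SE 0.08, adjusted p = 0.0355). AT4G13577, an uncharacterised gene with 11.1, 11.7 and 11.4 CPM in unwounded WT and 21.7, 15.7 and 16.7 in unwounded isi1-2, was higher at 0.67 (SE 0.12, adjusted p = 0.0412). The call of NIA2 was lost in 7 and that of AT4G13577 in 8 of the 12 fits that each left out 1 library. The count was 0 without any 1 of the 6 unwounded libraries and without replicate 3 of wounded WT. At an unadjusted p under 0.05 there were 17 members (9.13% of all genes tested had such a p). The median member had a log2 fold change of -0.09, with 64 of 93 below 0, compared with 50.5% below 0 over all genes tested.

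Between unwounded plants most function groups had medians below 0, the values of isi1-2 being lower. The kinase and phosphatase members had 7 of 7 below 0 with a median of -0.11, the lipid and P450 members 6 of 7 with -0.15, and the nutrient members 6 of 8 with -0.16. The clock and light members, the group with the lowest median, were singled out after these values were seen. Their log2 fold changes ran from -0.58 for BBX16 to 0.09 for RVE7, with a median of -0.31 and 8 of 9 below 0. None of the 9 was called by edgeR after Benjamini-Hochberg adjustment, 4 had an unadjusted p under 0.05, and DESeq2 called none of them. All 3 unwounded isi1-2 libraries lay below all 3 unwounded WT libraries for CCA1, BBX16, BBX18, BBX25, BBX28, LNK3 and RPT2. The share of all genes tested with such a separation was not counted, here or for the members above, and nothing is read from it. The median stayed between -0.36 and -0.27 when each library was left out. Medians were above 0 in the auxin members (0.05, with 7 of 12 above 0), the other hormone members (0.03, 3 of 6) and the receptor-like and peptide members (0.09, 3 of 4). Differences between the groups were not tested.

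In wounded plants 7 of 93 members (7.53%) were called, all of them lower in isi1-2, against 185 genes (0.989%) called lower, 261 (1.40%) called higher and 446 (2.39%) called in either direction over all 18698. APT2 differed on the log2 scale by -0.73 (SE 0.10, adjusted p = 0.00212). NIA2 differed by -0.51 (SE 0.09, adjusted p = 0.00767). AT5G48490 differed most, at -1.82 (SE 0.35, adjusted p = 0.0120), and ACA1 was at -0.69 (SE 0.12, adjusted p = 0.00901). APT2 and NIA2 kept their calls in all 12 fits that each left out 1 library, and ACA1 and AT5G48490 lost them in 1 each.

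RPT2 at -0.77 (SE 0.17, adjusted p = 0.0451), DRT100 at -0.50 (SE 0.12, adjusted p = 0.0445) and AT4G12980 at -0.47 (SE 0.12, adjusted p = 0.0486) were close to the threshold and lost their calls in 10, 9 and 10 fits. In all, 28 members had an unadjusted p under 0.05, and 16.6% of all genes tested had such a p. The count of called members was 2 without replicate 2 of wounded isi1-2, and 4 without replicate 3 of any group or replicate 1 of unwounded isi1-2. It was 13 with DESeq2, all lower in isi1-2.

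Over the 93 members the median log2 fold change between wounded isi1-2 and wounded WT was -0.31, with 79 below 0, compared with a median of -0.01 and 51.5% below 0 over all genes tested. Replicate 1 of wounded WT, the pool with the highest member levels, bears on this value. Without it the median was -0.15 with 54 of 93 below 0, and 7 members were called, 6 lower and SAUR16 higher in isi1-2 (log2 fold change 0.92, edgeR adjusted p = 0.00133). APT2, NIA2, ACA1, AT5G48490 and RPT2 were among the 6, with AT1G67750. The value of RPT2 was then -0.50 (adjusted p = 0.00408), less than with all libraries by over 1.5 times.

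**Figure D4:**
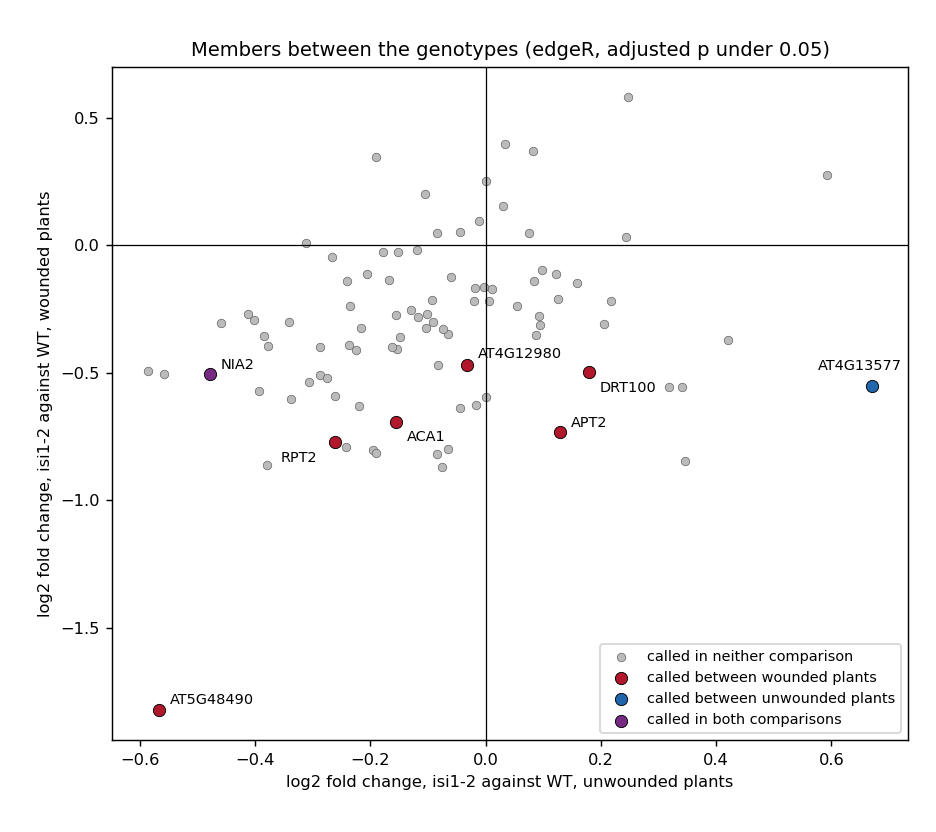
Each point is a member, with the log2 fold change of isi1-2 over WT in unwounded plants on the x axis and in wounded plants on the y axis (edgeR). Colours mark members called at an adjusted p under 0.05. NIA2 is called in both comparisons, 6 members only between wounded plants, all below 0, and AT4G13577 only between unwounded plants.

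The interaction term asked if isi1-2 and WT responded to wounding by different amounts, although the rule, which set the same bound on both responses, limits how far they could differ among members. It called 1 of 93 members (1.08%), with 3 genes (0.0160%) called in that direction and 6 (0.0321%) in either over the whole table. APT2 was at 23.6% in WT and 12.8% in isi1-2 of its unwounded level, an interaction of -0.86 (SE 0.13, adjusted p = 0.0376) on the log2 scale. The call was lost without any 1 of the 6 unwounded libraries, replicate 3 of wounded WT or replicate 2 of wounded isi1-2, which makes 8 of 12 fits, with values from -0.94 to -0.80 and adjusted p up to 0.145 over the 12. At an unadjusted p under 0.05 there were 16 members, and 10.5% of all genes tested had such a p. EXPA11 and AT4G13577, the next members, did not pass, EXPA11 being at -0.79 (SE 0.16, adjusted p = 0.0829) and AT4G13577 at -1.22 (SE 0.24, adjusted p = 0.0829). DESeq2 called 5 members, namely these 3, DRT100 and AT5G41900, all negative. The edgeR fit with no filter called the same 3 (adjusted p = 0.0365 for both EXPA11 and AT4G13577), as did that with the replicate number as a block (adjusted p = 0.0126 and 0.0352).

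The median interaction of the 93 members was -0.21, with 68 below 0, against -0.01 over all genes. Without replicate 1 of wounded WT the median was 0.03 with 44 of 93 below 0, so the sign of the median rests on that library. Then 4 members were called, APT2, EXPA11 and AT4G13577 with a larger and SAUR16 with a smaller response in isi1-2. Likewise 68 of 93 members kept a lower share in isi1-2 with all libraries and 45 of 93 without that one.

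Other genes of the same families were counted from lists that leave out the members and both excluded genes. Over all 18698 genes 23.0% were called lower in WT and 25.7% in isi1-2, and 23.9% and 25.1% higher, which makes 46.9% and 50.9% in either direction (edgeR, Benjamini-Hochberg adjusted p under 0.05). Of 43 other SAUR genes 24 fell and 10 rose in WT, and 24 fell and 8 rose in isi1-2. SAUR22 fell with log2 fold changes of -2.28 in WT (adjusted p = 3.95e-05) and -2.43 in isi1-2 (adjusted p = 2.80e-05), while the SAUR gene AT4G12410 rose by 4.99 in WT (adjusted p = 4.16e-07) and 4.99 in isi1-2 (adjusted p = 9.57e-07). Of 23 other Aux/IAA genes 12 fell and 5 rose in WT and 8 fell and 5 rose in isi1-2. IAA1 changed by -1.67 in WT (adjusted p = 2.94e-04) and -1.92 in isi1-2 (adjusted p = 8.30e-05) and IAA18 by 2.13 in WT (adjusted p = 2.94e-09) and 2.05 in isi1-2 (adjusted p = 3.03e-09), in opposite directions.

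Growth factors of the PRE family, small helix-loop-helix proteins that promote elongation, all fell, 4 of 4 in each genotype, with PRE5 at -4.78 in WT (adjusted p = 3.04e-04) and -2.99 in isi1-2 (adjusted p = 3.51e-04). Of 9 PIF, HFR1 and PAR factors of light signalling 6 fell and 2 rose in each genotype. HFR1 changed by -2.37 in WT (adjusted p = 0.00186) and -2.91 in isi1-2 (adjusted p = 5.07e-04). Of 12 other alpha-expansins 6 fell and 3 rose in WT and 5 and 3 in isi1-2, and EXPA10 rose by 1.19 in WT (adjusted p = 1.42e-06) and 2.29 in isi1-2 (adjusted p = 6.90e-10). Of 19 other XTH genes 8 fell in each genotype, and 4 and 5 rose, including XTH25 at 4.40 in WT (adjusted p = 3.08e-07) and 4.39 in isi1-2 (adjusted p = 2.78e-07).

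Hormone synthesis genes moved both ways. Of 6 other gibberellin genes 2 fell in each genotype and 2 and 3 rose. GA20OX1, of the synthesis branch that GA3OX1 ends, changed by -1.85 in WT (adjusted p = 7.53e-06) and -1.74 in isi1-2 (adjusted p = 9.71e-06), and GA2OX2, which inactivates gibberellin, by 3.82 in WT (adjusted p = 1.80e-08) and 4.03 in isi1-2 (adjusted p = 8.14e-09). GA2OX1, of the same inactivating family, went the other way, at -2.79 in WT (adjusted p = 1.02e-05) and -3.04 in isi1-2 (adjusted p = 1.14e-05). Of 10 other brassinosteroid genes 4 fell and 4 rose in each genotype, with BR6OX1, of the last synthesis steps, at -4.03 in WT (adjusted p = 9.43e-09) and -3.68 in isi1-2 (adjusted p = 9.11e-08). Of 8 type-A ARR genes, which respond to cytokinin, 3 fell and 2 rose in WT and 4 and 3 in isi1-2.

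The clock list of 18 other genes holds genes that are known to peak at different times of day. In WT 7 fell and 9 rose, and in isi1-2 8 and 8. RVE8, a morning factor like CCA1, changed by -2.17 in WT (adjusted p = 5.09e-06) and -2.53 in isi1-2 (adjusted p = 2.73e-06) and LHY, the close relative of CCA1, by -1.41 in WT (adjusted p = 0.00912) and -1.35 in isi1-2 (adjusted p = 0.00982). TOC1, an evening gene, changed by 1.46 in WT (adjusted p = 6.37e-06) and 1.11 in isi1-2 (adjusted p = 4.61e-05) and PCL1, another evening gene, by 1.84 in WT (adjusted p = 1.92e-07) and 1.84 in isi1-2 (adjusted p = 1.28e-07). Of 19 other BBX genes 10 fell in each genotype and 4 and 5 rose, from COL2 at -3.48 in WT (adjusted p = 1.18e-08) and -2.66 in isi1-2 (adjusted p = 4.62e-07) to BBX13 at 4.46 in WT (adjusted p = 1.72e-09) and 4.66 in isi1-2 (adjusted p = 8.66e-10).

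In several families the other genes moved both ways or mainly rose. Of 16 other CIPK genes 5 fell and 7 rose in WT and 3 and 7 in isi1-2. CIPK17 changed by -2.24 in WT (adjusted p = 2.06e-05) and -3.18 in isi1-2 (adjusted p = 2.35e-06) and CIPK21 by 2.59 in WT (adjusted p = 1.50e-12) and 2.32 in isi1-2 (adjusted p = 3.16e-12). Of 6 CBL genes 1 fell in WT and 2 in isi1-2. Of 6 other D-clade PP2C genes 3 rose in each genotype. Of 7 other TPP genes 3 and 4 fell and 2 rose, and of 3 other GASA genes 1 fell and 1 rose. Of 7 class II trehalose phosphate synthases 1 fell and 6 rose in WT and 1 and 5 in isi1-2, and of 5 BT genes 1 fell and 4 rose in each. Of 13 plasma membrane aquaporins 5 fell and 1 rose in WT and 5 and 3 in isi1-2. Of 15 aliphatic glucosinolate genes 1 fell and 7 rose in WT and 1 and 5 in isi1-2. Without replicate 1 of wounded WT, the WT counts lower and higher were 24 and 8 for SAUR, 13 and 3 for Aux/IAA, 10 and 5 for BBX, 7 and 4 for XTH and 4 and 8 for CIPK genes, and the GASA gene that fell no longer passed. CBL genes then numbered 2 lower and 1 higher in WT, and aquaporins 5 and 2. Aliphatic glucosinolate genes then numbered 1 lower and 5 higher in WT and 1 and 6 in isi1-2. For the PRE, clock, PIF and alpha-expansin lists the WT counts did not move. With library totals in place of TMM, Aux/IAA genes numbered 12 lower and 3 higher in WT and 12 and 5 in isi1-2, so the lower count in isi1-2 depends on the scaling. D-clade PP2C genes then numbered 3 higher in WT and 1 in isi1-2, type-A ARR genes 2 and 1 higher, and CBL genes 2 and 3 lower.

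The median log2 fold change of the other SAUR genes was -0.96 in WT and -0.88 in isi1-2, and that of the PRE genes -1.94 and -1.64. For the other BBX genes it was -0.48 and -0.42, for XTH genes -0.46 and -0.24, and for Aux/IAA genes -0.25 and -0.13. The other clock and CIPK genes had medians above 0, at 0.20 and 0.13 for clock and 0.30 and 0.15 for CIPK genes. Over all genes tested 50.4% of values were below 0 in WT and 50.3% in isi1-2, with medians within 0.01 of 0.

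**Figure D5:**
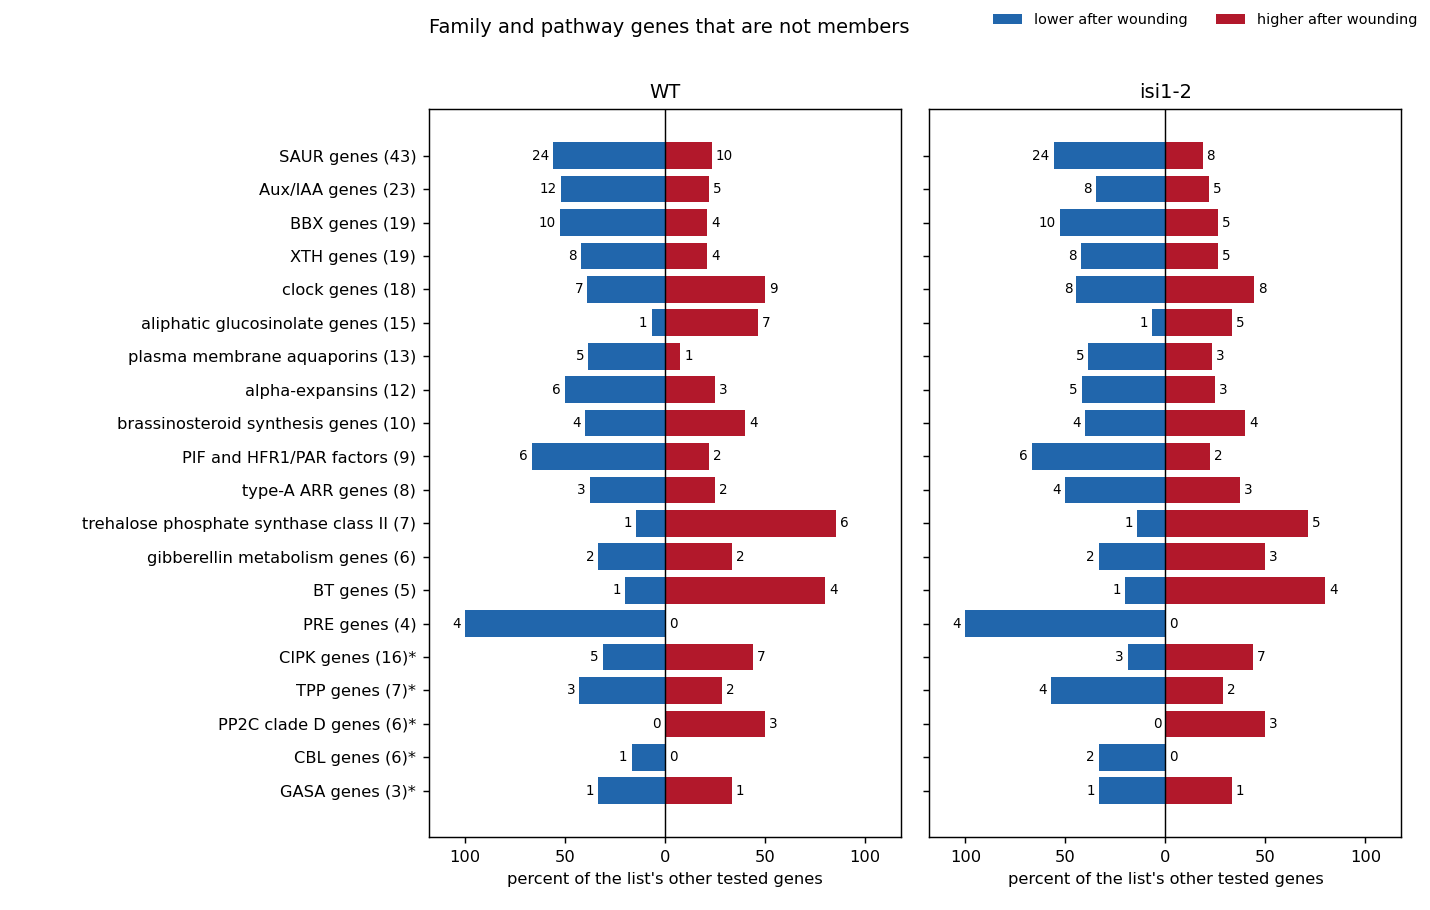
Bars give, for each list, the percent of its genes outside the 93 that were called lower (left, blue) or higher (right, red) after wounding in WT and isi1-2, with gene numbers beside the bars and the number tested in brackets. Lists with an asterisk were added after values were seen. All 4 PRE genes are on the left, while the BT and class II trehalose phosphate synthase lists lie mostly on the right.

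Members had fewer exons than other genes. Their median was 2 exons against 5 over the genes tested, and 34 of 93 (36.6%) had a single exon, against 15.1%. All 6 SAUR and all 5 CIPK members are among these 34, and the part of such families in the difference was not tested. Transcript length and GC content were closer, at medians of 1680 and 1759 bases and of 41.0% and 41.3%. The 93 genes lie on all 5 chromosomes, with 25 on chromosome 1, 19 on chromosome 2, 17 on chromosome 3 and 16 each on chromosomes 4 and 5. AT3G14760 and SWEET2 are direct neighbours, and SAUR20 and SAUR21 have 1 gene between them. A gene on the opposite strand overlaps 21 members, among them GASA6, APR2, IAGLU, UGT74D1, GH3.9, ACA1, APD7, CBF3 and BBX25. Whether counting used the strand is not given in the sources used here, so reads of such pairs may be mixed.

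Upstream sequence was read from RefSeq's TAIR10.1 assembly, 250 bases before the start of each of the 93 genes, on both strands. The motif TATCCA, known from sugar-responsive promoters in cereals, was in 23 of 93 (24.7%), compared with 14.3% of the promoters of tested genes and 13.1% of all 37883 promoters. TGTCTC, an auxin response element, was in 15.1% of members and 10.6% of tested genes, and TGTCGG, another form, in 2.15% and 4.72%. The G-box CACGTG was in 7.53% and 7.49%, the evening element AAAATATCT in 2.15% and 2.55%, the CCA1 site AAAAATCT in 5.38% and 6.90% and the W-box (TTGACC or TTGACT) in 29.0% and 27.7%. CACATG, which reads CATGTG on the other strand, was in 14.0% and 11.1%, CACTTG in 7.53% and 9.62%, the I-box GATAAG in 14.0% and 12.6% and GGATTA in 8.60% and 11.8%. The CGCG-box (ACGCGT or CCGCGT) was in 4.30% and 3.55%, the telo-box AAACCCTA in 3.23% and 3.68% and the site II motif TGGGCC in 11.8% and 17.3%. Over all promoters these shares were 10.9% for TGTCTC, 4.08% for TGTCGG, 5.40% for the G-box, 2.11% for the evening element, 6.11% for the CCA1 site, 27.5% for the W-box, 10.9% for CACATG, 9.76% for CACTTG, 12.7% for the I-box, 11.6% for GGATTA, 3.30% for the CGCG-box, 4.76% for the telo-box and 11.4% for site II.

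TATCCA was chosen for display after these shares were seen, and a match is a description of letters only. Stretches of 60 bases around the match nearest to the start are shown for 6 members of different roles, 5′ to 3′ on the strand of the gene, with the match in capitals. Where the capitals read TGGATA the match is on the other strand, and a TATCCA preceded by CT, as in CYP71B2, also holds the I-box on the other strand. The match lies 82 bases before the start in AT5G48490 and 77 in CYP71B2, 165 in APD7, 201 in IAGLU, 98 in RPT2 and 86 in CIPK20.
AT5G48490 (chr5:19648412-19648471, minus strand): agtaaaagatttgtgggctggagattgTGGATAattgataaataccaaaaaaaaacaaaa
CYP71B2 (chr1:4458898-4458957, plus strand): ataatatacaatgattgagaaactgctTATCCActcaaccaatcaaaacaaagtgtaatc
APD7 (chr5:625062-625121, plus strand): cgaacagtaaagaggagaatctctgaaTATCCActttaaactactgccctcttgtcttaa
IAGLU (chr4:8879496-8879555, minus strand): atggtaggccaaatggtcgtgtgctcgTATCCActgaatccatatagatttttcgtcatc
RPT2 (chr2:13005812-13005871, minus strand): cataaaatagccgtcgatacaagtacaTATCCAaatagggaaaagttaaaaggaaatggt
CIPK20 (chr5:18588846-18588905, minus strand): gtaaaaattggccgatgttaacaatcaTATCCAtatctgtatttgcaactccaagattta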

How the data were processed

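RNA of 12 leaf samples was sequenced on an Illumina instrument after a stranded mRNA preparation, per the labels' protocols. The authors deposited raw read counts per gene, 1 file per sample, for the TAIR10 build. The submitters' processing notes name cutadapt 1.8, STAR 2.5.3a and HTSeq 0.9.1. The setting for strand is not given in the sources used here. The 5 summary lines that name no gene were left out.

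From the counts, CPM was computed over the total of each library, and members were found by the rule stated above. Genotypes were compared with edgeR 4.0.16 in R 4.3.3 (limma 3.58.1): filterByExpr (count of at least 10, total of at least 15), TMM factors, 1 coefficient for each of the 4 groups, a robust quasi-likelihood fit over 18698 genes and Benjamini-Hochberg adjustment. An adjusted p under 0.05 was a call. Alternatives were DESeq2 1.42.0, no filter, library totals in place of TMM, the replicate number as a block, and leaving out each library. The members and lists were chosen with earlier results of these data known, and 5 lists (CIPK, CBL, GASA, TPP and D-clade PP2C), the list counts and shares without replicate 1 of wounded WT, the list counts with library totals and the median of the clock and light members under the alternatives were added after values were seen.

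Named with values were the 10 members with the largest fall, the 10 with the highest unwounded CPM, all called members, up to 5 per function group by unwounded CPM, and the 3 genes nearest to the bound on either side. Genes of the lists and further members were named as examples after their values were seen. Replicates of a group differed by 4.29 to 24.2 in chi-square per degree of freedom over genes, more than sampling noise, and each library was counted as 1 replicate. Gene models and sequences come from RefSeq's TAIR10.1, matched by locus code for 93 of 93 members.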

Additional observations from a re-analysis of the deposited data

Results flagged for a closer look

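APT2 (AT1G80050), the adenine salvage gene, was the 1 member whose response to wounding differed between the genotypes by edgeR's test of the difference itself as described above. Its interaction was -0.86 (SE 0.13, adjusted p = 0.0376), with 23.6% in WT and 12.8% in isi1-2 of the unwounded mean left. Wounded libraries held 7.13, 6.24 and 7.14 CPM in WT and 4.36, 3.63 and 4.07 CPM in isi1-2, and all 3 isi1-2 values were lower. The call was lost in 8 of the 12 fits that each left out 1 library, with an adjusted p of up to 0.145. EXPA11 and AT4G13577 were called too with no filter, with the replicate block and with DESeq2.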

How the results depend on the processing

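Called members between unwounded plants numbered 2, and 1 with library totals, 2 with no filter, 3 with DESeq2 and 0 to 2 when each library was left out. Between wounded plants the 7 became 13 with DESeq2, 10 with library totals, 9 with no filter and 2 to 9 with a library left out. For the interaction the 1 became 3 with no filter, 5 with DESeq2, 1 with library totals and 0 to 4 with a library left out. The cause of these moves was not tested. The median log2 fold change over members ran from -0.14 to -0.09 between unwounded plants, from -0.46 to -0.15 between wounded plants and from -0.37 to 0.03 for the interaction when each library was left out. Genes that met the rule numbered 206 with a bound of 1/3 and 48 with 1/5 of the unwounded mean, and 76 to 122 with a library left out, against 93. TMM-scaled CPM gave 83, and minimum levels of 2 and 8 CPM gave 125 and 66. With library totals the median wounding response of all genes tested was -0.08 in WT and -0.09 in isi1-2 on the log2 scale, against -0.003 and -0.004 with TMM.

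Deviations of same-numbered replicates from their group means had correlations of -0.01 to 0.17 between wounded WT and isi1-2 and 0.03 to 0.18 between unwounded ones. Differently numbered replicates had -0.19 to 0.08 between wounded and -0.12 to 0.06 between unwounded plants. Whether the numbers pair the samples was not tested. With the replicate number as a block, 3, 8 and 3 members were called in the unwounded, wounded and interaction comparisons, and the medians were -0.10, -0.30 and -0.20. EXPA11 was then called in all 3 comparisons (adjusted p = 0.0190, 0.0379 and 0.0126), HMA2 was called between wounded plants (0.0183) and DRT100 was not (0.0525). For single called members, 57 alternative values lost the call, and none reversed. The remaining 117 values kept their call and direction or were medians of the clock and light members, which carry no call. Depth limits the members with few reads after wounding: the lowest member count in a wounded library was 6.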
